A study of Homo sapiens with 6 samples.

Results

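The genes described here are 10 enzymes of de novo nucleotide synthesis, taken by name from the 13117 genes of the deposited expression table. They comprise 7 purine enzymes (PPAT, GART, PFAS, PAICS, ADSL, ATIC and IMPDH2) and 3 pyrimidine enzymes (CAD, UMPS and CTPS1), and all 10 were found and passed the filter on low values. RNA was sequenced from SNU449, an established line of hepatocellular carcinoma cells, carrying FOXO1AAA in the doxycycline-inducible vector pInducer20. FOXO1AAA is a form of the transcription factor FOXO1 that the kinase AKT can no longer phosphorylate at its usual sites. The 3 Cont libraries came from cells without doxycycline and the 3 Dox libraries from cells given 2 µM doxycycline hydrochloride for 48 h. Both groups carried the construct, and the labels give the genotype of all 6 samples as WT. The question put to this comparison was which transcripts change when FOXO1AAA is induced. No group had doxycycline without the construct, so what the drug does and what FOXO1AAA does cannot be told apart. The sources used here do not say whether the line is 1 clone. The labels do not say whether libraries stem from different cultures, and p-values therefore measure the spread between these libraries, which may be technical.

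Cells build purines stepwise on a ribose phosphate. PPAT commits phosphoribosyl pyrophosphate (PRPP) to the pathway, and GART, PFAS, PAICS, ADSL and ATIC carry the chain to inosine monophosphate (IMP). IMPDH2 then opens the branch to guanine nucleotides, while adenylosuccinate synthase and ADSL make adenine nucleotides. Pyrimidines are assembled as a free ring by CAD, oxidised by DHODH, joined to ribose and decarboxylated by UMPS, and aminated to CTP by CTPS1. Growing cells rely on these routes for RNA, DNA and cofactors, and the transcription factor MYC, which binds the E-box CACGTG with its partner MAX, is a known activator of many of the genes.

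PPAT and PAICS lie head to head on chromosome 4 and share the region between their starts, which is shown because the pair changed by unequal amounts. In RefSeq's GRCh38.p14 promoter table, PPAT starts at 56435615 on the minus strand and a PAICS transcript at 56435752 on the plus strand, with 136 bases between them. The windows from 250 bases before to 50 bases after each start overlap by 236 bases. The plus strand of the stretch between the starts (chr4:56435616-56435751), and a short stretch (chr4:56435780-56435801) around the E-box that lies in both windows, are printed in lower case with the E-box in capitals.
PPAT-PAICS: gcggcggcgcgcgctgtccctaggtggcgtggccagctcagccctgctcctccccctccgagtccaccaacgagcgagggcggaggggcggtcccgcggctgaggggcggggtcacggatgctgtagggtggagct
PAICS E-box: ctgtatttgctgCACGTGgaaa
Relative to the starts, that E-box lies at position -182 for PPAT and at 40 for the PAICS start named above.

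ATIC is the other gene of the set with an E-box in its window, and is shown for the 2 E-boxes that this window holds. They lie at -46 and 29 relative to the start. The 250 bases before the start (chr2:215311809-215312058, plus strand) and a short stretch around the second E-box (chr2:215312076-215312105) are printed the same way.
ATIC: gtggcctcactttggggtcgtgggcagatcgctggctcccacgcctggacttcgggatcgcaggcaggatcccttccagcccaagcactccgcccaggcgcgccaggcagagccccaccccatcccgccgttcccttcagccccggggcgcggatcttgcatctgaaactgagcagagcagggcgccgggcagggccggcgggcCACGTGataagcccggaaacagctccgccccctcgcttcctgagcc
ATIC second E-box: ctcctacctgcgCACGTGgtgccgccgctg
Of the 10 genes, 8 matched a window by symbol. In at least 1 window, 3 of these 8 (PPAT, PAICS and ATIC) held CACGTG, which reads the same on both strands. PPAT and PAICS hold the same match, and GART, PAICS and CTPS1 have more than 1 window. The shares that follow count windows, so they cannot be set directly against these counts of genes. Among all 34943 windows of that length, 7.23% held it, and among the 15384 windows whose gene was measured, 8.99% did. The forkhead core TGTTTAC, searched on both strands as TGTTTAC or GTAAACA, was in 0 of the 8 genes' windows and in 3.42% of all windows and 2.57% of those whose gene was measured. With 0 forkhead matches in these genes' windows, no overlap with an E-box was possible there. A match describes these letters and is not a measured binding site, and the lack of one says only that the letters are not in this window.

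Of the 10 enzymes, 9 were lower in Dox and 0 were higher, and ADSL did not pass the test (limma, adjusted p under 0.05 over the 11526 genes tested). The share of all tested genes called lower was 42.8%, that called higher was 37.6%, and 80.4% were called in either direction. All 3 Dox libraries lay below all 3 Cont libraries for 9 of the 10, against 43.7% of all tested genes, while 82.1% of them had groups that did not overlap in either direction. On the log2(FPKM + 1) scale of the test, called falls of at least 2-fold were found for 5 of the 10, PFAS, PAICS, IMPDH2, CAD and CTPS1, against 16.6% of all tested genes. On the same scale, falls of at least 4-fold were found for 4 of the 10, the same genes without CAD, against 3.76%. Fold changes of single genes are ratios of mean FPKM, and by that measure PPAT (2.02) and CAD (4.07) also pass 2-fold and 4-fold. As a log2 change (Dox less Cont, after adding 1 to FPKM), the median was -1.42 for the 10 and -0.06 for all tested genes. FPKM scales fragments to transcript length and library size, so levels can be compared between genes. Among all calls, 46.7% were higher, but 59.0% were when FPKM was rescaled to TPM without the mitochondrially encoded genes, which made up 3.73 ± 0.855% (SD, n = 3) of all FPKM in Cont but 14.1 ± 0.80% in Dox. On that scale the same 9 enzymes were called lower, with a median of -1.20 against 0.19 for all genes.

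**Figure D1:**
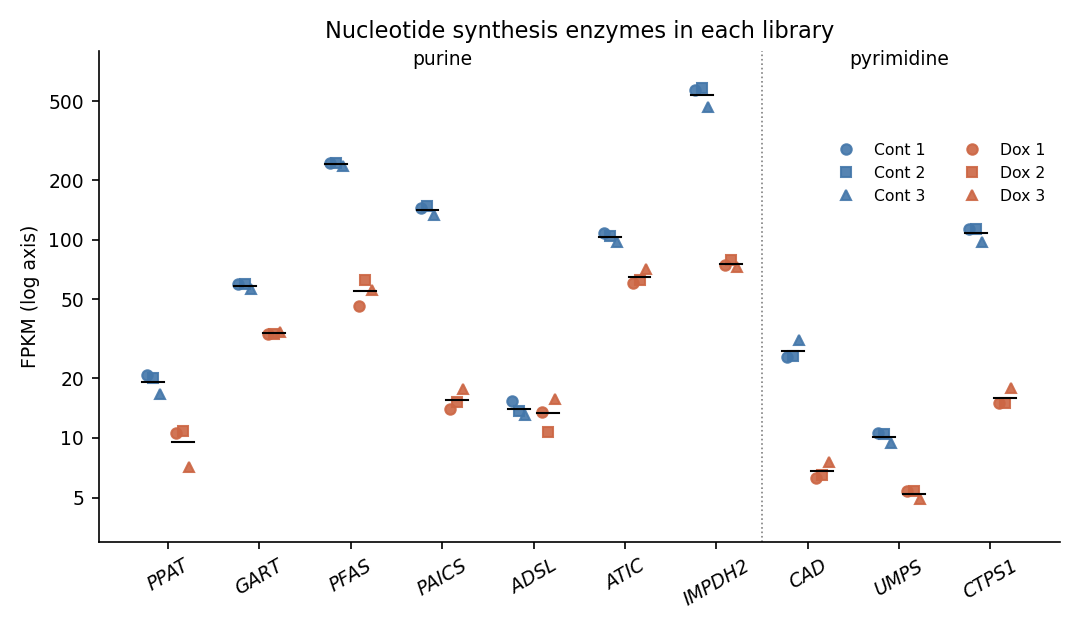
FPKM on a log axis of each enzyme in the 6 libraries, with Cont in blue, Dox in orange, 1 symbol per replicate number and a black line at each group's mean. The groups overlap for ADSL alone, and IMPDH2 is the highest of the 10 in both groups.

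The commitment step of purine synthesis was modestly lower. PPAT, the amidotransferase that uses PRPP first, had FPKM values of 20.8, 20.2 and 16.7 in Cont, against 10.6, 10.8 and 7.12 in Dox. All 3 Dox values lay under all 3 Cont values, and library 3 was the lowest of its group on both sides. Mean FPKM went from 19.2 ± 2.19 to 9.49 ± 2.05 (SD, n = 3), which is a 2.02-fold fall (log2 change -0.96, SE 0.15, limma adjusted p = 0.000169).

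PAICS, a bifunctional carboxylase and ligase acting later in the chain, fell the most of the 10. It was at 145, 148 and 133 FPKM in Cont and at 14.0, 15.2 and 17.7 in Dox. The means of 142 ± 7.77 and 15.6 ± 1.88 (SD, n = 3) gave a 9.10-fold fall (log2 change -3.11, SE 0.09, limma adjusted p = 2.49e-09). Only 0.651% of all tested genes had a more negative log2 change.

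The neighbours PPAT and PAICS thus moved by different amounts. The level of PPAT relative to PAICS was 0.143, 0.137 and 0.125 across Cont, against 0.755, 0.710 and 0.403 across Dox. This ratio was 4.45-fold higher in Dox, and the groups did not overlap. An exact permutation test, two-sided, gave p = 0.1 (adjusted p = 0.1 over 3 ratios), the smallest value that 3 against 3 libraries allow. Both genes share sequence with other loci, since GENCODE release 29 lists 7 pseudogenes named after PAICS and 2 named after PPAT, and the sources used here do not say how shared reads were counted.

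Between these enzymes in the chain stand GART and PFAS, which fell by different amounts. GART, a trifunctional enzyme, was at 59.5, 60.1 and 56.2 FPKM in Cont and at 33.4, 33.5 and 34.2 in Dox. It fell 1.74-fold (log2 change -0.78, SE 0.06, limma adjusted p = 1.66e-06), and its 3 Dox values had the smallest coefficient of variation of the set, 1.18%. PFAS, the amidotransferase that follows the first GART reactions, was at 244, 244 and 235 in Cont and at 46.3, 62.7 and 55.9 in Dox. Its 4.38-fold fall (log2 change -2.12, SE 0.10, limma adjusted p = 4.02e-08) placed 3.14% of all tested genes below it.

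ADSL, the lyase that acts both in the chain to IMP and in the branch to AMP, was the exception. It was at 15.3, 13.7 and 13.1 FPKM in Cont and at 13.5, 10.8 and 15.7 in Dox. The groups overlapped, with the lowest and the highest of the 6 values both in Dox. The log2 change was -0.08 with a 95% interval from -0.37 to 0.20 (limma adjusted p = 0.552), so an increase of 0.20 or a decrease of 0.37 in log2 is within its error. Its sign turned with scaling, to 0.025 in TPM (limma adjusted p = 0.866) and to 0.18 once mitochondrially encoded genes were left out of TPM (limma adjusted p = 0.207), and without Dox replicate 2, to 0.052 (limma adjusted p = 0.672).

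ATIC, which makes IMP in the last reactions of the chain, was at 109, 105 and 97.7 FPKM in Cont and at 60.7, 62.9 and 71.5 in Dox. Its 1.59-fold fall (log2 change -0.67, SE 0.08, limma adjusted p = 2.81e-05) was the smallest of the 9 falls. The 3 Dox values stayed under the 3 Cont values.

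Past IMP, the guanine branch was lower, while ADSS2 and ADSL of the adenine branch were not called. IMPDH2, the main IMP dehydrogenase of proliferating cells, was at 571, 582 and 469.6 FPKM in Cont and at 74.7, 78.7 and 72.5 in Dox. It fell 7.18-fold (log2 change -2.82, SE 0.09, limma adjusted p = 3.73e-09), with 1.02% of all tested genes below it. GMPS, which turns xanthosine monophosphate into GMP, fell from 18.2 ± 0.882 to 3.88 ± 0.428 FPKM (SD, n = 3; log2 change -1.98). In the adenine branch ADSS2, the adenylosuccinate synthase of most tissues, was at 43.8, 46.0 and 45.2 in Cont and at 44.7, 45.7 and 42.4 in Dox (log2 change -0.02, limma adjusted p = 0.743). ADSS2 was called higher, at 0.25 (limma adjusted p = 0.00565), where TPM left out mitochondrially encoded genes. The level of IMPDH2 relative to ADSS2, a ratio chosen after the values were seen and not tested, was 10.4 to 13.0 in Cont and 1.67 to 1.72 in Dox.

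The pyrimidine enzymes were lower at each of their 3 members. CAD, which carries the first reactions of the ring on 1 polypeptide, was at 25.5, 25.9 and 31.3 FPKM in Cont and at 6.30, 6.50 and 7.54 in Dox. It was the single member whose highest Cont value was in library 3. Its fall was 4.07-fold (log2 change -1.87, SE 0.10, limma adjusted p = 1.05e-07).

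UMPS, the bifunctional UMP synthase, was the lowest of the 10 in both groups. It was at 10.6, 10.5 and 9.41 FPKM in Cont and at 5.39, 5.39 and 4.93 in Dox, a 1.94-fold fall (log2 change -0.84, SE 0.09, limma adjusted p = 1.02e-05). DHODH, the mitochondrial enzyme acting between CAD and UMPS, fell by a like amount, from 5.81 ± 0.637 to 2.59 ± 0.135 (SD, n = 3; log2 change -0.92).

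CTPS1, the CTP synthase of proliferating cells, was at 114, 114 and 97.2 FPKM in Cont and at 15.0, 15.0 and 17.8 in Dox. Its 6.79-fold fall (log2 change -2.69, SE 0.09, limma adjusted p = 5.80e-09) was exceeded by those of PAICS and IMPDH2 alone. The 3 Dox values were less than any Cont value by a wide margin.

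**Figure D2:**
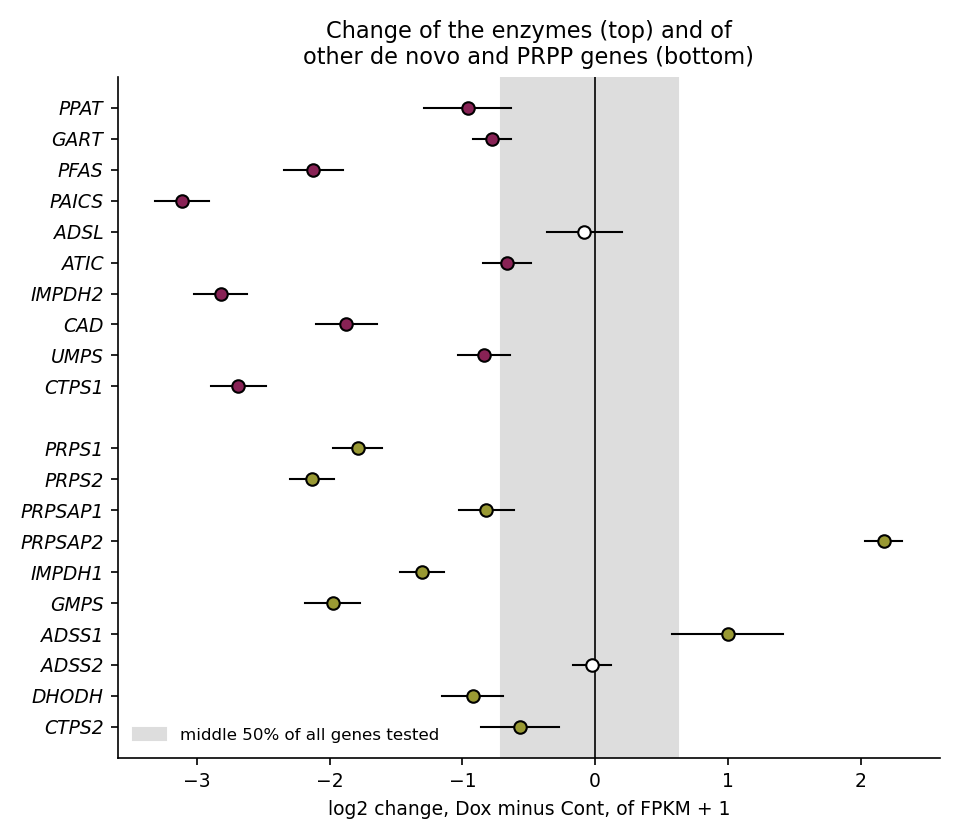
Log2 change with its 95% interval from limma for the 10 enzymes and for 10 other genes of de novo synthesis and PRPP supply, with open circles for genes that did not pass the test and a grey band from -0.71 to 0.63 over the middle 50% of all genes tested. PAICS, IMPDH2 and CTPS1 lie farthest to the left, ADSL and ADSS2 lie near 0, and PRPSAP2 and ADSS1 lie to the right.

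The isozymes of IMPDH2 and CTPS1 were called lower too, with smaller changes. For IMPDH1, the other IMP dehydrogenase, the mean FPKM went from 85.9 ± 2.14 to 34.2 ± 2.69 (SD, n = 3), and the log2 change was -1.30 (limma adjusted p = 1.21e-07). The ratio of IMPDH2 to IMPDH1 was 6.75, 6.59 and 5.55 across Cont, against 2.24, 2.45 and 1.95 across Dox, 2.85-fold lower. CTPS2 went from 12.2 ± 0.287 to 8.02 ± 1.85 (log2 change -0.56, limma adjusted p = 0.00259), and its call ended at -0.32 (limma adjusted p = 0.0533) where TPM left out mitochondrially encoded genes. The ratio of CTPS1 to CTPS2 was 9.57, 9.30 and 7.82 in Cont and 2.23, 2.08 and 1.76 in Dox, 4.40-fold lower. Neither ratio overlapped between groups, and a ratio within a library does not depend on scaling. Each gave p = 0.1 by the two-sided exact permutation test (adjusted p = 0.1 over 3 ratios), the smallest value possible here.

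**Figure D3:**
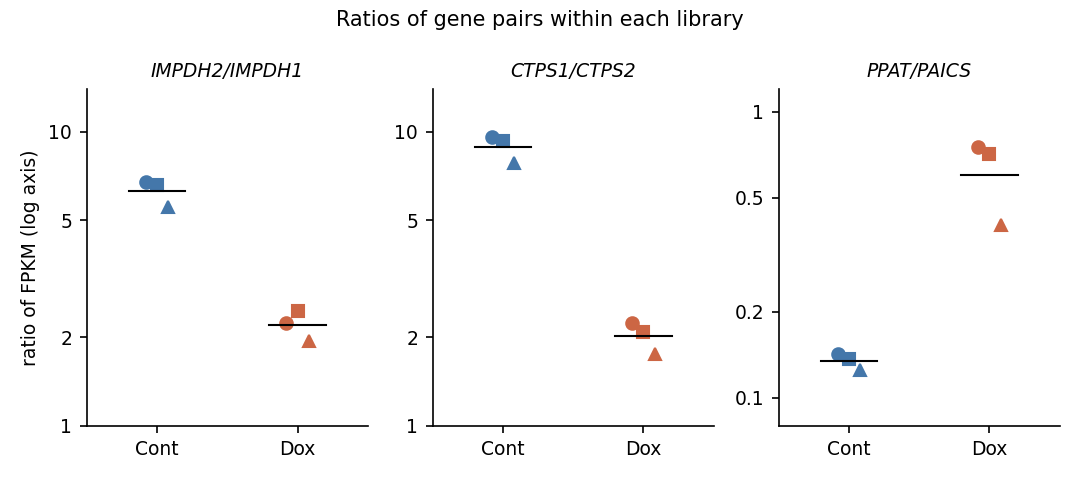
Ratio of FPKM within each library on a log axis for IMPDH2 over IMPDH1, CTPS1 over CTPS2 and PPAT over PAICS, with 1 symbol per replicate number and a line at the mean of the log2 ratios. The first and second ratios are lower in all 3 Dox libraries, and PPAT over PAICS is higher in all 3.

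The order of levels within the set narrowed and changed. In Cont it ran IMPDH2, PFAS, PAICS, CTPS1, ATIC, GART, CAD, PPAT, ADSL and UMPS, and among neighbours the libraries overlapped for CTPS1 and ATIC alone. In Dox it ran IMPDH2, ATIC, PFAS, GART, CTPS1, PAICS, ADSL, PPAT, CAD and UMPS. There the neighbours ATIC and PFAS overlapped, and so did each neighbouring pair from CTPS1 through CAD. The summed FPKM of the 10 was 1314, 1323 and 1159 in Cont and 279.9, 301 and 305 in Dox, 4.28-fold lower. The sum was 4.19-fold lower for the purine enzymes and 5.22-fold lower for the pyrimidine enzymes. IMPDH2 made up 42.7 ± 1.88% of the sum in Cont and 25.5 ± 1.55% in Dox (SD, n = 3). As a share of all FPKM outside the mitochondrial genome, the set fell from 0.201 ± 0.00869% to 0.0570 ± 0.00261%. In these bulk samples fewer cells expressing a gene and less RNA per cell cannot be told apart.

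Libraries 1 and 2 of each group lay closer to each other than to library 3. Across tested genes the median absolute log2 difference was 0.0696 between Cont 1 and 2 and 0.0883 between Dox 1 and 2, and 0.133 to 0.136 for pairs with library 3. Of the 10 enzymes, 9 had their lowest Cont value in library 3, whereas 6 had their highest Dox value there. With libraries 1 and 2 of each group averaged and counted as 1 (2 against 2, chosen after seeing the data), the number of enzymes called lower was again 9.

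The supply of PRPP was lower at the synthetases and not at all of their partners. Among 10 other genes of de novo synthesis and PRPP supply, 7 were lower, 2 were higher and 1, ADSS2, was not called (median log2 change -0.87). Of all tested genes 42.8% were called lower and 37.6% higher in FPKM. These shares are the background for the FPKM counts of this list and each list below. PRPS1 fell from 93.1 ± 4.66 to 26.3 ± 2.60 FPKM and PRPS2, the more abundant PRPP synthetase, from 382 ± 33.0 to 85.9 ± 0.991 (SD, n = 3; log2 changes -1.79 and -2.13). Their associated proteins split, with PRPSAP1 at -0.82 and PRPSAP2 at 2.17. PRPSAP2 rose from 36.6, 35.5 and 37.5 to 169, 162 and 174 FPKM (limma adjusted p = 2.42e-09). ADSS1, the muscle form of adenylosuccinate synthase, was at 0.685 ± 0.191 in Cont and 2.43 ± 0.834 in Dox, a low level beside that of ADSS2. It passed the filter through its Dox libraries alone, and the list had 1 rise, PRPSAP2, when any 1 Dox library was left out or the filter was set at FPKM 5.

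Ribose phosphate comes from the pentose phosphate pathway, and 5 of its 7 genes were lower, 1 was higher and 1 was not called (median log2 change -0.91). Transketolase, TKT, fell from 417 ± 25.1 to 35.1 ± 3.65 FPKM (SD, n = 3). PGLS was called higher (0.34, limma adjusted p = 0.0381), a call that ended without the mean-variance trend (limma adjusted p = 0.0513) and without Cont replicate 3, Dox replicate 2 or Dox replicate 3 (limma adjusted p = 0.0728, 0.112 and 0.0766).

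Folate one-carbon units and glycine feed the GART and ATIC reactions. Of 10 tested genes of that supply, 6 were lower and 4 were higher (median log2 change -0.86), against 42.8% and 37.6% of all tested genes. MTHFD1, the cytosolic trifunctional enzyme, fell from 30.6 ± 1.93 to 4.75 ± 0.448 FPKM and SHMT1, a cytosolic hydroxymethyltransferase, from 25.2 ± 4.44 to 5.74 ± 0.128 (SD, n = 3). Mitochondrial enzymes of the list went both ways. MTHFD2L rose from 9.47 ± 1.82 to 29.4 ± 1.27 and MTHFD2 rose by 0.93 in log2, whereas SHMT2 and MTHFD1L were at -1.70 and -1.26. ALDH1L1, which oxidises formyl-folate and so removes one-carbon units, was at 0.150, 0.123 and 0.203 FPKM in Cont and at 7.94, 8.36 and 5.92 in Dox. ALDH1L1 passed the filter through its Dox libraries alone, so its call carries no weight as a test, and the list had 3 rises when any 1 Dox library was left out.

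Downstream of the de novo routes, deoxynucleotide production was lower in 5 of 8 genes, higher in 1 and not called in 2 (median log2 change -1.48). Beside this list and the kinases, the shares over all tested genes were 42.8% lower and 37.6% higher. RRM2, the small subunit of ribonucleotide reductase that cycling cells use, fell from 38.8 ± 3.98 to 2.66 ± 0.312 FPKM and thymidylate synthase, TYMS, from 33.1 ± 3.11 to 3.01 ± 0.59 (SD, n = 3). RRM2B, the alternative small subunit, rose from 9.83 ± 0.0518 to 40.8 ± 2.24. Of 13 nucleotide kinases, 8 were lower, 2 were higher and 3 were not called (median -0.37), with AK5 at -2.62, NME1 at -2.40, AK3 at 1.44 and AK1 at 0.60. The call of AK1 ended under quantile normalization (limma adjusted p = 0.0971).

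Salvage enzymes and nucleoside carriers, which reuse preformed bases and nucleosides, had 10 falls and 3 rises among 15, with 2 not called (median log2 change -0.43). Beside this list and the breakdown genes, the shares over all tested genes were 42.8% lower and 37.6% higher. The cytosolic kinases TK1 and DCK fell from 311 ± 36.1 to 57.3 ± 14.0 and from 122 ± 9.05 to 24.3 ± 4.04 FPKM (SD, n = 3). The mitochondrial thymidine kinase TK2 rose from 27.5 ± 3.48 to 57.0 ± 1.76, and UPRT rose by 0.75 in log2. DGUOK, also mitochondrial, was not called (log2 change -0.02, limma adjusted p = 0.809). It was called higher, at 0.25 (limma adjusted p = 0.0313), where TPM left out mitochondrially encoded genes. Nucleotide breakdown had 7 falls and 5 rises among 12 tested genes (median -0.31), but 4 falls and 5 rises in TPM without mitochondrially encoded genes, where its median was -0.034. On that scale falls and rises numbered 6 and 3 for the de novo and PRPP genes and 5 and 3 for the deoxynucleotide genes. They numbered 5 and 3 for the kinases and 8 and 5 for salvage. The shares of 42.8% and 37.6% are from FPKM and are no background for these counts. Among all calls, 59.0% were higher in TPM without mitochondrially encoded genes, against 46.7% in FPKM. DPYD, the first enzyme of pyrimidine catabolism, rose from 9.07, 9.44 and 8.25 to 65.3, 64.5 and 57.0 FPKM (log2 change 2.67, limma adjusted p = 3.46e-09). The nucleotidase NT5C2 rose by 1.36, whereas ADA and NT5C3A were each at -1.54.

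**Figure D4:**
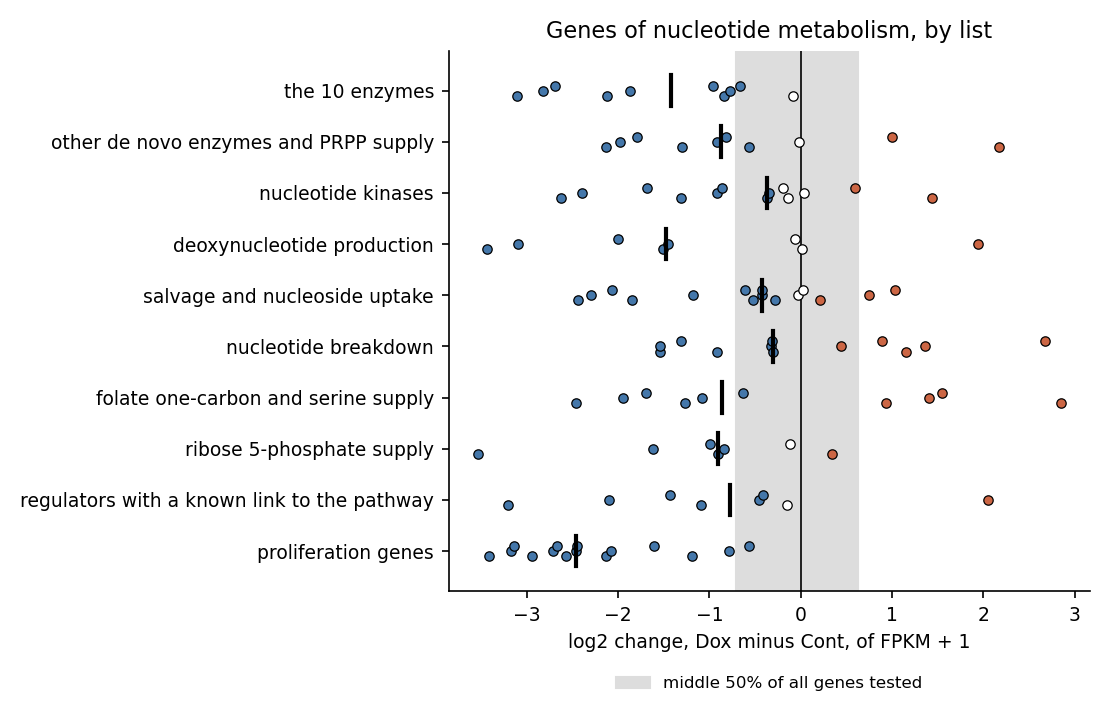
Log2 change of each tested gene by list, with falls in blue, rises in orange, genes that did not pass the test open, a black bar at each list's median and a grey band over the middle 50% of all genes tested. The 10 enzymes have 9 falls and no rise, the proliferation list has falls alone, and each of the other lists has both falls and rises.

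Proliferation genes were lower in Dox, as most of the enzymes were, while the regulators went both ways. MYC was at 67.1, 67.9 and 44.3 FPKM in Cont and at 5.89, 5.92 and 4.60 in Dox (log2 change -3.21, limma adjusted p = 5.54e-08), and MAX rose from 92.1 ± 13.4 to 382 ± 19.1 (SD, n = 3; log2 change 2.05). Of 8 regulators measured, 6 were lower, 1 was higher and 1 was not called (4 lower and 1 higher in TPM without mitochondrially encoded genes), and E2F1 fell from 50.8 ± 3.18 to 11.1 ± 1.39. All 15 proliferation genes were lower (median -2.46; 14 of 15 in TPM without mitochondrially encoded genes and under quantile normalization), with a summed FPKM of 1744 to 1950 in Cont and 487 to 646 in Dox, led by AURKB (-3.42) and MCM7 (-3.18). MKI67 fell from 73.4 ± 12.1 to 16.0 ± 3.36. The part of MYC, MAX or proliferation in the fall of the 10 enzymes was not tested.

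Outside these lists, 5 genes had the profile nearest to the median profile of the 10 enzymes, by Euclidean distance of log2(FPKM + 1) deviations over the 6 libraries. They were SLC5A6 (distance 0.0968), MED22 (0.114), NAA50 (0.121), PRMT5 (0.126) and PPP1CC (0.13), with log2 changes from -1.47 to -1.38.

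Depth was not given and was estimated from the steps between the lowest values, at roughly 28.4 to 47.1 M reads per library, on a scale that may be off by the factor of 2.27 to 2.41 by which the implied gene totals exceed it. On that scale, with the longest GENCODE transcript taken as each gene's length, PPAT in Dox replicate 3 had about 902 reads, the fewest of any enzyme in any library. UMPS had about 1042 there despite its lower FPKM (4.93 against 7.12). The order of these genes depends on the lengths taken, 4043 bases for PPAT and 6738 for UMPS. FOXO1, the induced gene, was at 0.802 ± 0.0777 FPKM in Cont and 2.79 ± 0.748 in Dox (SD, n = 3), without overlap; it passed the filter through Dox alone, so no p is given, and the sources used here do not say if construct reads count toward it. Of 15 hepatocyte markers 7 were listed. ALB missed the filter and was at 0.321 ± 0.239 FPKM in Cont and 1.19 ± 0.459 in Dox, at most at 1.71. Of the 5 hepatocyte markers tested, 4 were lower, against 42.8% of all tested genes, and CPS1 was not called (12.6 ± 0.50 and 13.8 ± 0.778). Of these 4, FGA passed the filter through its Cont libraries alone, so its call carries no weight as a test. The groups of AFP, also called lower, overlapped. CPS1 was called higher in TPM (0.24, limma adjusted p = 0.0184) and with median-of-ratios scaling (0.19, limma adjusted p = 0.0418). It was at 0.39 (limma adjusted p = 0.00107) where TPM left out mitochondrially encoded genes. FGB had the largest fall of the hepatocyte markers tested, from 170.0 ± 30.4 to 8.57 ± 1.88. Of 5 epithelial markers 3 were listed. KRT8 and KRT18 were called lower (log2 changes -1.45 and -2.43), and CDH1 missed the filter, at 0.748 ± 0.0472 FPKM in Cont and 0.166 ± 0.0253 in Dox. Of 5 mesenchymal markers 2 were lower (VIM and CDH2) and 3 were higher (FN1, ZEB1 and TWIST1). VIM was at 906 ± 7.83 and 291 ± 33.6 and TWIST1 at 142 ± 12.6 and 451 ± 24.1. Of 5 immune and 4 endothelial markers, 1 and 2 were listed, at no more than 2.38 and 0.92 FPKM. GART, PFAS and ADSL overlap the listed genes SON, CTC1 and SGSM3 in GENCODE release 29, and without stated strand handling their reads cannot be told apart where they overlap.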

How the data were processed

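RNA was profiled in 6 libraries, 3 Cont and 3 Dox, and the authors deposited 1 table of log2 FPKM values (-8.59 to 13.9), 1 column per library with no pooling. Total RNA was extracted with RNAiso Plus, per the labels' protocols. FastQC 0.11.7 and the GRCh38 build appear in the submitters' processing notes. The library kit, aligner, counting tool, annotation and gene filter are not given in the sources used here. Columns were matched to samples by title, and 1 Cont sample is described under another Cont sample's name, which leaves the groups as they are.

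FPKM was taken as 2 to the power of the deposited value. limma 3.58.1 in R 4.3.3 was run on log2(FPKM + 1) for the 11526 genes that reached FPKM 1 in 3 or more libraries. It used a mean-variance trend and Benjamini-Hochberg adjustment of two-sided p-values. It was also run on simulated data in which few genes changed. Most genes were called in the real data, so that run does not cover a setting like this one. Fold changes are ratios of mean FPKM, and SE comes from limma. Depth was estimated from 307 genes with a common floor value, read as 0 reads, above which every low value tested lay within 0.05 reads of a whole number. Gene coordinates come from GENCODE release 29 and promoters from RefSeq.

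The members and lists were chosen with earlier results of these data known. Named were the 10 enzymes, IMPDH1, CTPS2, GMPS, DHODH, PRPS1, MYC and MKI67, up to 2 called rises and 2 called falls per list, and the 5 genes nearest in profile. A gene chosen this way is not reported here. ADSS2, PRPSAP1, MTHFD2, SHMT2, MTHFD1L, DGUOK, FOXO1 and the markers were added after their values were seen. Of the lists, AK6, MTAP, CDA, GDA, AMPD1, DPYS, SLC25A32 and MYCN were not analysed here. XDH, UPB1 and ALDH1L2 missed the filter. Alternatives tried were other pseudocounts (0.1, 0.01), leaving out the filter or raising it to FPKM 5, TPM with and without mitochondrially encoded genes, median-of-ratios scaling, quantile normalization, the deposited log2 values, no trend, robust moderation, a replicate block and each library left out.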

Additional observations from a re-analysis of the deposited data

How the results depend on the processing

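The 9 falls were called in the same direction by limma under all 19 alternatives, 18 of them planned, and the number of enzymes called was 9 in each, leaving out each library included. Across these alternatives the log2 change ranged from -3.20 to -2.87 for PAICS and from -0.74 to -0.39 for ATIC. ADSL was not called under any of them (limma adjusted p from 0.133 to 0.995), and its sign turned in TPM (0.025) and in TPM without mitochondrially encoded genes (0.18). Leaving out 1 library at a time gave ADSL log2 changes from -0.20 to 0.052, the last without Dox replicate 2, where the sign turned; the cause was not tested. The totals of calls in each list, and over all genes, stayed within 1.5 times their value. Falls or rises taken alone moved by more in some lists. In TPM without mitochondrially encoded genes, falls went from 8 to 5 for kinases and from 7 to 4 for breakdown. Rises there went from 1 to 3 for deoxynucleotides and from 3 to 5 for salvage. Over all genes, the share of calls that were higher went from 46.7% to 59.0% there. Deoxynucleotide rises were 2 under quantile normalization. With the filter at FPKM 5, rises went from 2 to 1 for kinases and from 5 to 3 for breakdown. With the replicate number as a block, 9 of the 10 enzymes were again called and PAICS was at -3.11. Same-numbered Cont and Dox libraries correlated in their deviations by 0.0371, -0.0048 and 0.0793, so the numbers were not taken as a pairing, and a block on the 3 ratios gave the same differences (-1.51, -2.14 and 2.15 in log2 for IMPDH2 over IMPDH1, CTPS1 over CTPS2 and PPAT over PAICS), each with an exact permutation p of 0.25, the smallest that 3 pairs allow. With 3 libraries a group the unpaired exact tests of the ratios cannot give a p below 0.1.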
